A study of Mus musculus with 24 samples.

Results

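The comparison described here asks whether the change in lung gene expression between postnatal day (PND) 10 and PND 42 differed between *Scnn1b*-Tg mice and their wild-type (WT) littermates. For each probe set it takes the change from PND 10 to PND 42 in *Scnn1b*-Tg lungs and subtracts the change over the same interval in WT lungs. This difference of differences is called the interaction below, and an interaction of 1 on the log2 scale means that the fold change was 2-fold larger in *Scnn1b*-Tg. It was computed from 12 of the 24 whole-lung arrays of the series, 3 in each of the groups WT PND 10, WT PND 42, *Scnn1b*-Tg PND 10 and *Scnn1b*-Tg PND 42. The other 12 arrays, from PND 0 and PND 3, entered the fit only to estimate the spread between arrays and to give earlier levels.

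All groups were untreated male mice of strain C57Bl/6N Tac, kept specific-pathogen-free, and the left lobe was taken. *Scnn1b*-Tg mice carry a transgene for *Scnn1b*, the beta subunit of the epithelial sodium channel, driven by the promoter of the club cell secretory protein gene (*Scgb1a1*). The transgene is thus directed to club cells of the airway, while the arrays measure every cell type of the lobe. According to the methods of the study each array holds a pool of 3 animals, whereas by the labels 11 of the 12 arrays had 2 animals each and replicate 3 of *Scnn1b*-Tg PND 42 had 1. Each array was counted as 1 sample. The lobe mixes many cell types, so fewer cells of a type and less RNA per cell cannot be told apart in any value below.

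Sodium is taken up from airway surface liquid through the epithelial sodium channel, and water follows. Over-expression of the beta subunit dries the airway surface, and the mucus on it becomes concentrated and adheres. Mice of this line are known for mucus plugging, goblet cell change, airway inflammation with activated macrophages and enlargement of distal airspaces. Over the same weeks a normal mouse lung completes the formation of alveoli and shuts down much of its matrix synthesis. Goblet cells also appear for a short time in the airways of normal mouse pups. Goblet cells and alternatively activated macrophages respond to the type 2 cytokines IL-4 and IL-13 through the transcription factor STAT6.

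Transgene expression was present in every array of the labelled genotype. *Scnn1b* measured 6.37, 6.66 and 6.65 log2 in the WT PND 10 arrays and 9.70, 9.62 and 10.01 in the *Scnn1b*-Tg PND 10 arrays. At PND 42 the values were 7.75, 7.10 and 7.5 in WT and 10.28, 10.37 and 10.5 in *Scnn1b*-Tg. The genotypes did not overlap at either age, and the change of *Scnn1b* over the interval was not called different between them (interaction -0.29 log2, SE 0.37, adjusted p = 0.888). *Scgb1a1*, whose promoter drives the transgene, lay between 12.19 and 14.11 in the 12 arrays, with an interaction of 0.58 (SE 0.38, adjusted p = 0.702) that was -0.06 when quantile normalization was repeated. Its 3 lowest values were those of the *Scnn1b*-Tg PND 10 arrays. The 5 alveolar type II markers averaged 10.31 to 11.37 log2 and the 4 club cell markers 10.5 to 12.15 in every array.

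Correlations between arrays of the same group lay between 0.963 and 0.993, and no pair of arrays was identical. The *Scnn1b*-Tg PND 42 group was the loosest, and replicates 1 and 3 of it lay 0.370 and 0.367 log2 from the mean of the other arrays of their group (root mean square over probe sets). WT PND 10 replicate 3 had the lowest value of its group in 25 of the 42 probe sets called higher, and *Scnn1b*-Tg PND 42 replicate 1 did so in 25 as well. Skeletal muscle markers also set 2 arrays apart. The mean of the 7 markers lay between 4.47 and 4.83 in the WT and *Scnn1b*-Tg PND 42 arrays and between 4.83 and 7.12 in *Scnn1b*-Tg PND 10, where replicates 1 and 2 were the high ones.

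A call required an interaction of 2-fold or more in either direction and, in limma with Benjamini-Hochberg adjustment, a p no higher than 0.05. Of 21,789 probe sets with a single gene symbol, 49 were called, which is 0.225% and corresponds to 48 genes. The interaction was positive for 42 of them (0.193% of those tested) and negative for 7 (0.0321%). A further 21 passed the adjusted p without reaching 2-fold, for 70 in all. Over all probe sets the median interaction was 0.004 and 50.6% lay above 0, so the middle of the distribution was not shifted. Its tails were unequal, with a 1% quantile of -0.699 and a 99% quantile of 0.984. By limma 6.13% of probe sets had an unadjusted p under 0.05 in the higher direction and 3.72% in the lower. By comparison 1208 probe sets (5.54%) were called for age in WT, 1.7% of those tested being higher and 3.84% lower at PND 42, and 1127 (5.17%) were called in *Scnn1b*-Tg, 1.79% higher and 3.38% lower. When quantile normalization was repeated, 36 probe sets were called higher and 12 lower. The number of calls depended on single arrays: without WT PND 10 replicate 1 or 2 it was 20 or 21, without WT PND 42 replicate 3 it was 23, without *Scnn1b*-Tg PND 10 replicate 1 or 3 it was 28 or 29, without *Scnn1b*-Tg PND 42 replicate 2 it was 24, and without *Scnn1b*-Tg PND 42 replicate 1 it was 90. Without WT PND 42 replicate 2 it was 37, of which 23 were higher and 14 lower. A call survived the removal of each array in turn for 17 probe sets, those of *Clca1*, *Chil4*, *Slc26a4*, *Rnase2a*, *Chil3*, *Mmp12*, *Fbp1*, *Muc5ac*, *Ch25h*, *Ctsk*, *Mgl2*, *Thbs2*, *Igha*, *Tm4sf19*, *Plekhg1*, *Lrp12* and *Scin*. The other 32 kept their direction but lost the call without at least 1 of the 12 arrays.

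**Figure D1:**
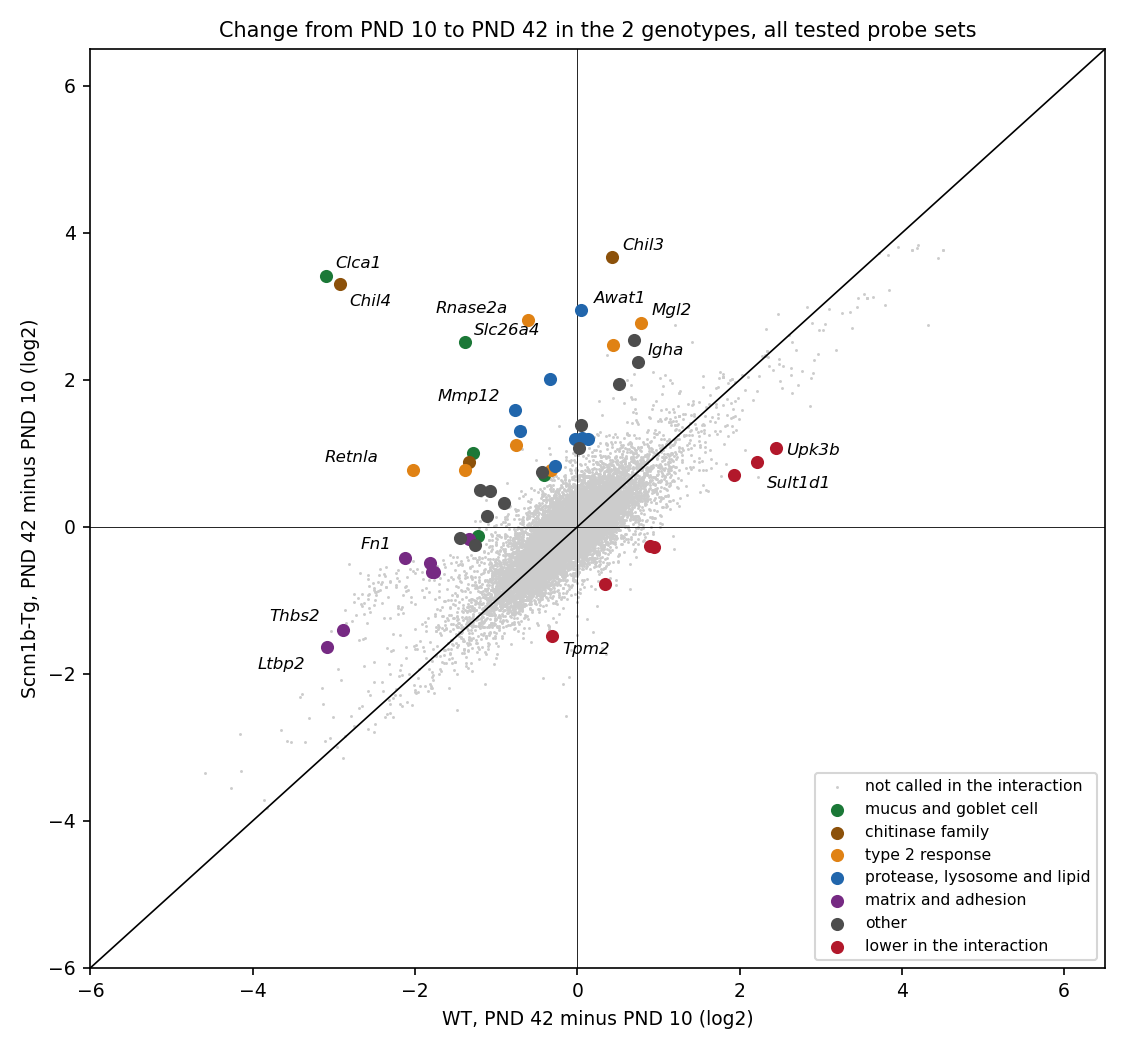
Change from PND 10 to PND 42 in WT (x axis, log2) against the same change in *Scnn1b*-Tg (y axis, log2), 1 point per probe set, with the 49 called probe sets coloured by role and a diagonal where both genotypes changed alike. *Clca1* and *Chil4* lie farthest to the upper left, at about 3 log2 down in WT and 3 log2 up in *Scnn1b*-Tg (-3.10 and 3.42 for *Clca1*), while *Thbs2* and *Ltbp2* lie in the lower left, having fallen in both genotypes but less in *Scnn1b*-Tg.

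How a positive interaction came about differed between genes. *Clca1*, *Chil4* and *Slc26a4* fell in WT and rose in *Scnn1b*-Tg, both changes being called. Another 15 probe sets fell in WT and were not called in *Scnn1b*-Tg, 17 rose in *Scnn1b*-Tg and were not called in WT, 2 (*Thbs2* and *Ltbp2*) fell in both genotypes, and 5 were called in neither interval. Among the 15 was *Muc5ac*, which rose in *Scnn1b*-Tg by just under 2-fold. The genotypes themselves differed in few probe sets, 0.151% at PND 10 (0.106% higher and 0.0459% lower in *Scnn1b*-Tg) and 0.34% at PND 42 (0.326% higher and 0.0138% lower). Seen by age, *Clca1*, *Chil4* and *Muc5ac* were lower in *Scnn1b*-Tg at PND 10 and higher at PND 42. At PND 42 alone 19 were called higher in *Scnn1b*-Tg, and 2 (*Thbs2* and *Col6a3*) were called lower at PND 10 alone, while 16 were called between the genotypes at neither age. *Mmp12* and *Ctsk* were higher in *Scnn1b*-Tg at both ages. In 31 of the 42 probe sets more of the interaction lay at PND 42 than at PND 10. None of the 49 was called between the genotypes at PND 0 or PND 3, whose arrays entered the interaction test only through the estimate of spread. Of all probe sets 0.0138% were called at PND 0, all higher, and 0.0184% at PND 3, 0.00918% in each direction. The differences of the 42 ranged from -0.51 to 0.34 log2 at PND 0 and from -0.49 to 0.42 at PND 3.

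**Figure D2:**
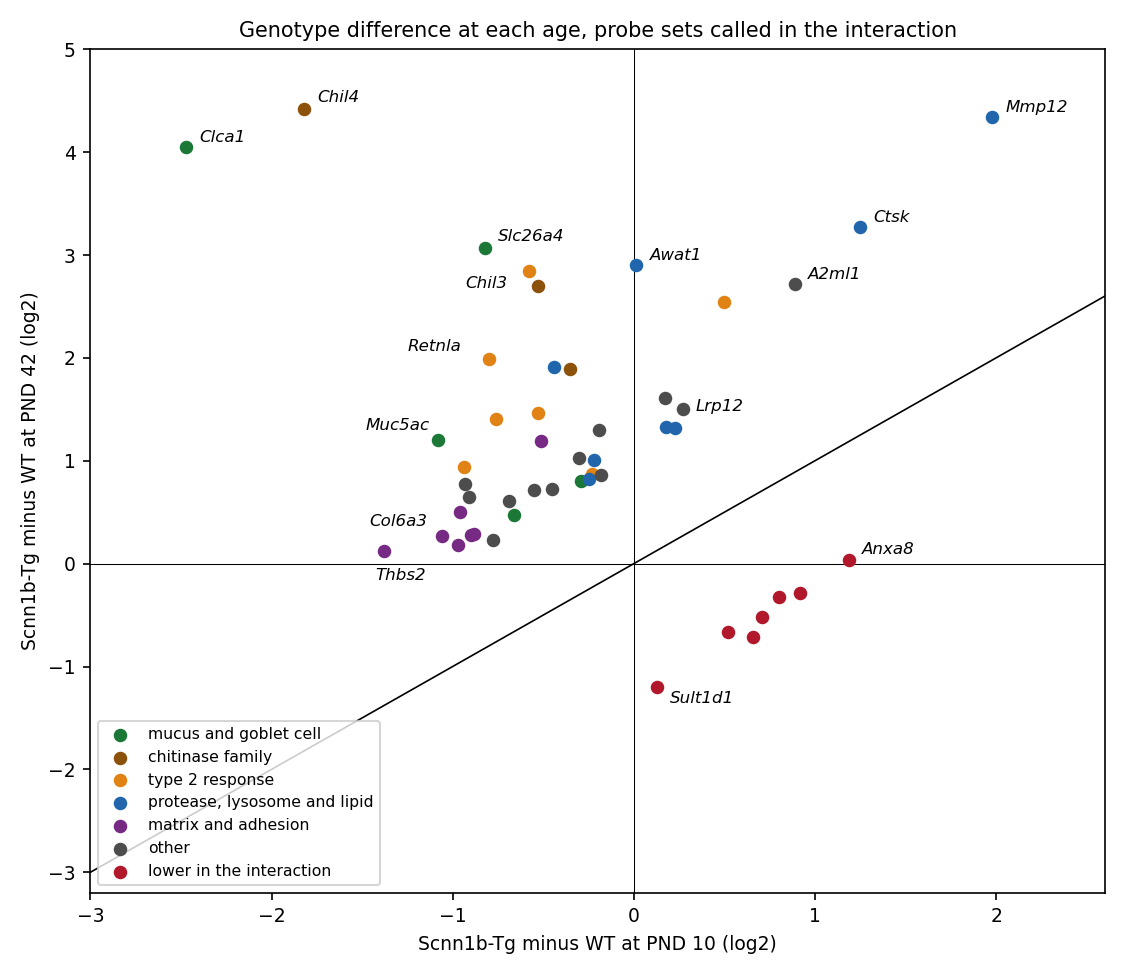
*Scnn1b*-Tg minus WT at PND 10 (x axis, log2) against the same difference at PND 42 (y axis, log2) for the 49 called probe sets, coloured by role, with a diagonal where the difference was equal at both ages. Mucus, chitinase family and type 2 genes spread upward, protease genes such as *Mmp12* (1.98 and 4.34) lie at the upper right, and the matrix genes *Thbs2* (-1.38 and 0.12) and *Col6a3* (-1.06 and 0.27) lie to the left near 0 on the y axis.

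The sequences just upstream of 5 of these genes are shown as examples of promoters of called genes that hold a motif for STAT factors or for PU.1, the master regulator of macrophages. The windows come from RefSeq on build GRCm38.p6 and hold the 250 bases before an annotated start, 5′ to 3′ on the strand of the gene. A window was at hand for 41 of the 48 called genes (*Clca1*, *Muc5ac*, *Ccl24*, *Fn1*, *Igha*, *Cd1d1* and *Lrp12*, not in the table used here, are named only). Capitals mark matches on either strand to TTCNNNGAA, the spacing of most STAT factors, to the same letters with 4 in place of 3 free bases between TTC and GAA, the spacing preferred by STAT6, or to GAGGAAGT, a PU.1 motif. *Chil4* (chr3:106219480-106219729, minus strand) and *Chil3* (chr3:106167565-106167814, minus strand) are shown first, then *Retnla* (chr16:48842359-48842608, plus strand), *Ccl17* (chr8:94810203-94810452, plus strand) and *Mmp12* (chr9:7344147-7344396, plus strand).
Chil4: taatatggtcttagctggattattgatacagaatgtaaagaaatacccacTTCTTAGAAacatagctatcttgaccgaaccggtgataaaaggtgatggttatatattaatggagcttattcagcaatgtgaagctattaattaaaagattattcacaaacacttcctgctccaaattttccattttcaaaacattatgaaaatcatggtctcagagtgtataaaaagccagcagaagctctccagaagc
Chil3: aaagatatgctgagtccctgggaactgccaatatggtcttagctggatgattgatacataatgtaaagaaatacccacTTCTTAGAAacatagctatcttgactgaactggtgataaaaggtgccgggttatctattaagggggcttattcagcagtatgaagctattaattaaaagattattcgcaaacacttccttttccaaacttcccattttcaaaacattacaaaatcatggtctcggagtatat
Retnla: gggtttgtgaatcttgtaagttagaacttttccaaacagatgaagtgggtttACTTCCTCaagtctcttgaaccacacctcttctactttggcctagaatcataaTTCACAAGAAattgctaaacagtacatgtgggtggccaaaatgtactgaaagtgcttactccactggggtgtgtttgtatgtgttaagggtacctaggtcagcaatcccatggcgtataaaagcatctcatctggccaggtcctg
Ccl17: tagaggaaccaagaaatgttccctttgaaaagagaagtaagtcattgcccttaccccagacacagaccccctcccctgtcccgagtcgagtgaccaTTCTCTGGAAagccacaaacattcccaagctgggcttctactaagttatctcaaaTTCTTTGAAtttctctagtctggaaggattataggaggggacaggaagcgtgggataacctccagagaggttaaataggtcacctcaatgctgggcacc
Mmp12: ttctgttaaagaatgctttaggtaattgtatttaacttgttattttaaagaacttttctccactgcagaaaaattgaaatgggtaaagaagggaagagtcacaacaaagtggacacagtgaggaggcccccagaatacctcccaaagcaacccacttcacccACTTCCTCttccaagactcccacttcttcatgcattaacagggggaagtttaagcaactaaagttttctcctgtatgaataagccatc

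*Chil4* and *Chil3* are neighbouring copies, and their windows share a run of 44 identical bases that includes the capitals TTCTTAGAA. The STAT6 spacing occurred upstream of 4 of the 41 called genes (*Ccl17*, *Pdcd1lg2*, *Retnla* and *Tbxas1*) and in 5.85% of the 32,851 windows of all genes. TTCNNNGAA occurred upstream of 3 (*Ccl17*, *Chil3* and *Chil4*), against 7.02% of all windows, and GAGGAAGT upstream of 3 (*Fbp1*, *Mmp12* and *Retnla*), against 2.44%. TCACGTG, a motif of the lysosomal regulators TFEB and TFE3, occurred upstream of none, against 3.13% of all windows. *Mmp12* has another annotated start, whose window holds none of these motifs. The window of *Ccl17* lies inside the annotated span of that gene (chr8:94809380-94812038), so it precedes a start within the gene and not its outermost start. These matches describe letters in a short window and say nothing about binding.

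Among genes of mucus production 5 were called higher, and *Clca1* had the largest interaction of all probe sets tested. *Clca1* (chr3:145004537-145032776 on GRCm38.p6), a secreted product of goblet cells formerly named Clca3 or gob-5, measured 10.53, 10.17 and 9.79 log2 in WT at PND 10 and 7.30, 6.72 and 7.18 at PND 42. In *Scnn1b*-Tg lungs it measured 7.62, 8.15 and 7.31 at PND 10 and 11.22, 10.76 and 11.35 at PND 42. Groups did not overlap at either age and the order of the genotypes turned over between the ages. The interaction was 6.52 (SE 0.31, adjusted p = 1.85e-11 by limma with Benjamini-Hochberg adjustment), a 91.6-fold difference between fold changes. At PND 0 and PND 3 the group means of *Clca1* lay between 4.06 and 4.37 in both genotypes, so its transcript was high in WT lungs at PND 10 after a low level at birth.

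*Slc26a4* (chr12:31519814-31560055), which encodes the anion exchanger pendrin, fell from 6.27, 5.87 and 5.08 to 4.41, 4.31 and 4.33 in WT and rose from 4.93, 4.73 and 5.07 to 7.10, 8.14 and 7.04 in *Scnn1b*-Tg. One WT array at PND 10, replicate 3, lay just above the highest *Scnn1b*-Tg array. The interaction was 3.90 (SE 0.35, adjusted p = 1.56e-06). *Muc5ac*, a gel-forming mucin, measured 6.54, 6.29 and 5.56 in WT at PND 10 and 4.83, 5.05 and 4.65 at PND 42. In *Scnn1b*-Tg it measured 5.20, 5.01 and 4.95 at PND 10 and 6.05, 5.59 and 6.51 at PND 42, again without overlap between the genotypes at either age (interaction 2.29, SE 0.29, adjusted p = 0.000192). Its change over the interval was -1.29 in WT, which was called. In *Scnn1b*-Tg it was 1.00 (adjusted p = 0.00068 by limma), just under the 2-fold limit. *Agr2*, which encodes a disulfide isomerase needed to fold mucins, fell in WT by 1.22 log2 and was not called in *Scnn1b*-Tg (-0.12), for an interaction of 1.10 (SE 0.16, adjusted p = 0.00148). *Scin*, an actin-severing protein of secretory cells, was 1.12 (SE 0.13, adjusted p = 0.00014) at levels of 3.85 to 4.78 that are near the floor of the array.

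*Muc5b* encodes the other gel-forming mucin of the airway, and its values in WT did not fall. *Muc5b* measured 7.22, 7.07 and 7.25 in WT at PND 10, 8.11, 7.58 and 7.56 in WT at PND 42, 7.67, 7.07 and 6.88 in *Scnn1b*-Tg at PND 10 and 8.54, 8.95 and 10.07 in *Scnn1b*-Tg at PND 42. It rose in *Scnn1b*-Tg (1.98, adjusted p = 0.000281) and was not called in WT (0.57), and its interaction of 1.41 (SE 0.52, adjusted p = 0.329) was not called. *Tff2*, a trefoil peptide secreted with mucus, had an interaction of 1.11 (SE 0.46, adjusted p = 0.407). Of 25 measured goblet and mucous secretory genes, 5 were called higher (0.193% of all probe sets were) and none lower. By limma 10 had an unadjusted p under 0.05 in the higher direction (6.13% of all probe sets did). Like the other lists, this one was drawn up with earlier results of these data known, and its median interaction was 0.32. *Bpifa1*, a secreted airway defence protein of the same list, had the lowest value of it (-1.58, SE 0.46, adjusted p = 0.158).

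Of the chitinase family *Chil4*, *Chil3* and *Chia1* were called higher. *Chil4* (Ym2) measured 9.34, 8.93 and 7.32 in WT at PND 10 and 5.51, 5.46 and 5.81 at PND 42, and in *Scnn1b*-Tg 7.22, 6.34 and 6.58 at PND 10 and 10.27, 10.13 and 9.63 at PND 42. The lowest WT array at PND 10, replicate 3, was only just above the highest *Scnn1b*-Tg array, whereas at PND 42 the genotypes lay far apart. Its interaction was 6.23 (SE 0.45, adjusted p = 4.75e-08) and stayed between 5.83 and 6.84 without any 1 array. *Chil3* (Ym1), abundant in alveolar macrophages, was not called in WT (10.42, 10.73 and 9.42 at PND 10, then 10.63, 10.82 and 10.42) and rose in *Scnn1b*-Tg from 10.07, 9.25 and 9.66 to 12.93, 13.78 and 13.28, for an interaction of 3.23 (SE 0.52, adjusted p = 0.00521). *Chil3* and *Chil4* are so alike in sequence that array probes may bind both transcripts. The WT change over the interval was -2.93 for *Chil4* and 0.43 for *Chil3*.

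*Chia1*, the acidic mammalian chitinase, fell in WT by 1.34 and was not called in *Scnn1b*-Tg (0.89), for an interaction of 2.23 (SE 0.41, adjusted p = 0.0172), a call lost without 4 of the 12 arrays in turn. The family's 4 other measured members were not called, among them *Chil1* with 0.93 (SE 0.43, adjusted p = 0.48). Of 7 measured genes of chitinases and chitinase-like proteins 3 were called higher (0.193% of all probe sets were), and the list median was 0.93.

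**Figure D3:**
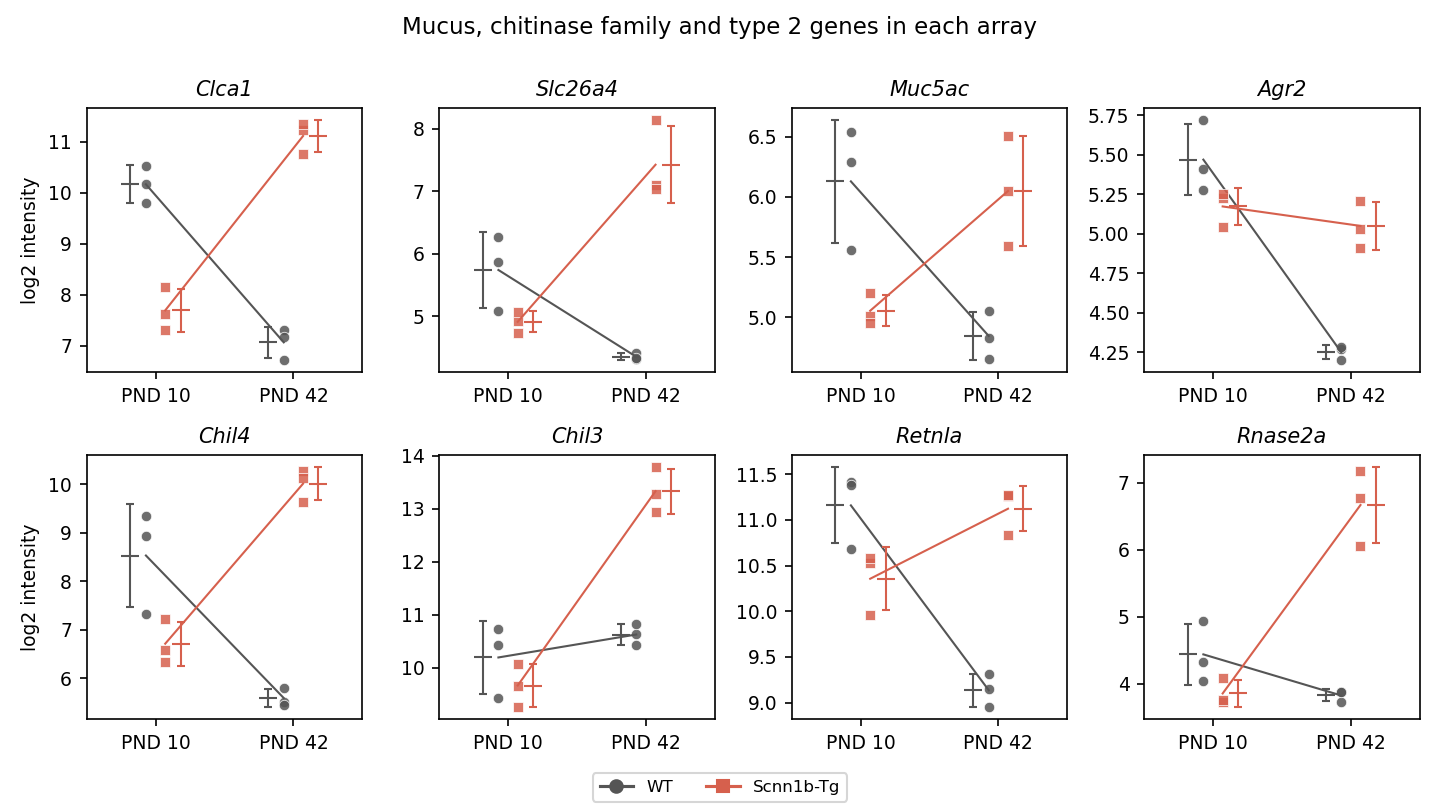
Log2 intensity of 8 mucus, chitinase family and type 2 genes in each of 3 arrays per group at PND 10 and PND 42 (WT as grey circles, *Scnn1b*-Tg as red squares), with the group mean and SD beside the points and a line joining the means. The lines cross in all 8 panels, from 7.69 to 11.11 in *Scnn1b*-Tg against 10.17 to 7.06 in WT for *Clca1*, and WT PND 10 replicate 3 is the lowest of its group in every panel but that of *Agr2*.

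Markers and effectors of the type 2 response formed a further group, with 6 of 29 listed genes and *Rnase2a* called higher. *Retnla*, a secreted resistin-like protein of macrophages and airway epithelium, fell in WT from 11.42, 11.38 and 10.68 to 9.31, 9.15 and 8.95 and was not called in *Scnn1b*-Tg, where it went from 9.96, 10.53 and 10.58 to 11.26, 11.27 and 10.84. The interaction was 2.79 (SE 0.59, adjusted p = 0.0441), and the call was lost without 10 of the 12 arrays in turn, with an adjusted p of up to 0.143 without *Scnn1b*-Tg PND 10 replicate 1. *Rnase2a* (formerly Ear11), an eosinophil-associated ribonuclease that attracts macrophages, was near the floor in 9 arrays (3.72 to 4.94) and measured 6.06, 6.77 and 7.17 in *Scnn1b*-Tg at PND 42. Its interaction was 3.43 (SE 0.29, adjusted p = 6.32e-07). *Mgl2*, a lectin of alternatively activated macrophages and dendritic cells, rose in *Scnn1b*-Tg from 4.0, 4.56 and 4.41 to 6.68, 7.48 and 7.16, for an interaction of 1.99 (SE 0.24, adjusted p = 0.00014). In WT it measured 4.98, 4.95 and 4.64 and then 5.73, 5.59 and 5.62, a difference of 0.79 log2 that lay under the 2-fold limit.

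The chemokines of this group, *Ccl24* (eotaxin-2, which draws eosinophils) and *Ccl17* (which draws T helper 2 cells), had interactions of 2.17 (SE 0.44, adjusted p = 0.0355) and 1.88 (SE 0.41, adjusted p = 0.0496). *Ccl24* fell in WT from 5.79, 5.92 and 4.96 to 4.23, 4.13 and 4.16 while the *Scnn1b*-Tg arrays at PND 42 spread from 4.76 to 6.55. Calls for both were fragile, being lost without 8 and 9 of the 12 arrays in turn. *Pdcd1lg2*, the inhibitory ligand PD-L2, had an interaction of 1.10 (SE 0.20, adjusted p = 0.0172) at levels of 3.86 to 5.17. *Ch25h*, cholesterol 25-hydroxylase, was not called in WT (4.31, 4.33 and 4.17, then 4.63, 4.73 and 4.78) and rose in *Scnn1b*-Tg from 4.94, 4.79 and 4.58 to 6.90, 8.03 and 6.81, for an interaction of 2.04 (SE 0.35, adjusted p = 0.0112).

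Of 29 measured genes of the type 2 cytokine axis and alternative activation 6 were called higher (0.193% of all probe sets were) and none lower. By limma 11 had an unadjusted p under 0.05 in the higher direction (6.13% of all probe sets did) and 1 (*Il5*) in the lower (3.72%). The median interaction was 0.38. None of the type 2 cytokines *Il4*, *Il5*, *Il13* and *Il33* was called. *Il4* and *Il13* group means lay between 3.64 and 3.95 in all 4 groups, with interactions of 0.20 (SE 0.12, adjusted p = 0.657) and 0.19 (SE 0.19, adjusted p = 0.841), and *Stat6* had 0.16 (SE 0.22, adjusted p = 0.897). *Il5*, which supports eosinophils, had the lowest value of the list, -0.68 (SE 0.28, adjusted p = 0.412). *Il33*, an epithelial cytokine upstream of the axis, had 0.99 (SE 0.60, adjusted p = 0.66), and *Arg1*, the arginase of alternatively activated macrophages, had 2.02 (SE 0.60, adjusted p = 0.176). These 6 genes were picked for their place in the pathway after their values had been seen. The defining eosinophil markers stayed dim, the mean of the 5 lying between 4.48 and 4.9 in all 12 arrays, and 1 of 18 eosinophil, basophil and mast cell genes was called (*Rnase2a*).

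A second group held proteases, lysosomal enzymes and genes of lipid and prostanoid metabolism, and 7 of its 8 members rose in *Scnn1b*-Tg while none was called in WT. *Mmp12*, the elastase of macrophages, measured 6.5, 6.6 and 5.4 in WT at PND 10 and 5.24, 5.65 and 5.31 at PND 42. In *Scnn1b*-Tg it measured 8.41, 7.65 and 8.37 at PND 10 and 9.54, 10.05 and 9.61 at PND 42. All *Scnn1b*-Tg arrays lay above all WT arrays at both ages, and the difference widened from 1.98 to 4.34 log2 (interaction 2.36, SE 0.39, adjusted p = 0.00608). *Ctsk*, the collagen- and elastin-degrading protease cathepsin K, widened in the same way, from 6.73, 6.64 and 6.70 against 8.26, 7.75 and 7.82 at PND 10 to 6.08, 5.91 and 5.97 against 9.38, 9.52 and 8.87 at PND 42. Its interaction was 2.02 (SE 0.30, adjusted p = 0.00187). At PND 0 and PND 3 neither gene was called between the genotypes, with *Mmp12* means of 4.75 to 5.17.

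*Lipa*, the lysosomal acid lipase and the member of the group that was not called over the *Scnn1b*-Tg interval, measured 9.28, 9.15 and 8.97 in WT and 9.32, 9.41 and 9.34 in *Scnn1b*-Tg at PND 10, and 8.95, 8.76 and 8.87 against 9.94, 10.42 and 10.20 at PND 42. The genotypes were nearly level at PND 10 and separate at PND 42 (interaction 1.10, SE 0.22, adjusted p = 0.0347). *Awat1*, an acyltransferase that makes wax esters, lay between 3.50 and 3.93 in 9 arrays and at 6.98, 8.02 and 5.05 in *Scnn1b*-Tg at PND 42, a group that spread over almost 3 log2 (interaction 2.90, SE 0.56, adjusted p = 0.0323). *Acaca*, acetyl-CoA carboxylase of fatty acid synthesis, had 1.07 (SE 0.23, adjusted p = 0.046). *Fbp1*, fructose-1,6-bisphosphatase of gluconeogenesis, rose in *Scnn1b*-Tg from 4.27, 4.01 and 4.03 to 5.67, 6.62 and 6.03, for an interaction of 2.35 (SE 0.29, adjusted p = 0.000174). A pair of prostanoid genes also rose in *Scnn1b*-Tg, *Tbxas1* (thromboxane synthase) with an interaction of 1.15 (SE 0.24, adjusted p = 0.041) and *Ptgir* (the prostacyclin receptor) with 1.23 (SE 0.24, adjusted p = 0.0346).

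Of 25 measured lysosomal hydrolases and cathepsins 2 were called higher (0.193% of all probe sets were), 23 lay above 0 (50.6% of all probe sets did) and the median was 0.34. *Ctsd* (cathepsin D) and *Gla* (alpha-galactosidase) came next, with 0.79 (SE 0.20, adjusted p = 0.103) and 0.91 (SE 0.28, adjusted p = 0.19), neither being called. Of 30 alveolar and foamy macrophage genes 1 was called (*Chil3*), 26 lay above 0 and the median was 0.59. By limma 9 had an unadjusted p under 0.05 in the higher direction (6.13% of all probe sets did). *Itgax* (CD11c), a surface integrin of alveolar macrophages, had 1.31 (SE 0.41, adjusted p = 0.204) and the chemokine *Ccl6* 1.60 (SE 0.48, adjusted p = 0.183). The mean of 10 macrophage markers moved with this group. It lay at 6.82 to 6.92 in WT and 7.26 to 7.55 in *Scnn1b*-Tg at PND 10, and at 7.0 to 7.23 and 7.59 to 8.28 at PND 42. The part of cell number in these values was not tested, and the median interaction over the 10 markers was 0.21, none of them being called.

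Of 7 matrix genes called higher, 2 (*Thbs2* and *Col6a3*) were called lower in *Scnn1b*-Tg at PND 10, 1 (*Fn1*) was called higher at PND 42 and 4 were called between the genotypes at neither age. These 4 were lower in *Scnn1b*-Tg at PND 10 too, by less than 2-fold. *Thbs2*, the matricellular protein thrombospondin 2, measured 7.54, 7.41 and 7.28 in WT and 5.79, 6.22 and 6.08 in *Scnn1b*-Tg at PND 10. At PND 42 it measured 4.51, 4.53 and 4.52 in WT and 4.42, 4.57 and 4.91 in *Scnn1b*-Tg. The genotypes were apart at PND 10 (-1.38, adjusted p = 6.72e-06) and overlapped at PND 42 (0.12, adjusted p = 0.858), so that *Thbs2* fell by 2.89 in WT and by 1.40 in *Scnn1b*-Tg (interaction 1.5, SE 0.19, adjusted p = 0.000192). Its means at PND 0 and PND 3 lay between 5.63 and 5.96 in both genotypes. The level of WT lungs at PND 10 was thus higher than at any other age, and the *Scnn1b*-Tg lungs showed less of that peak.

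*Ltbp2*, a latent TGF-beta binding protein of elastic fibres, fell by 3.09 in WT (from 8.60, 8.84 and 8.40 to 5.62, 5.34 and 5.64) and by 1.63 in *Scnn1b*-Tg (from 7.35, 8.0 and 7.63 to 5.68, 6.09 and 6.30), for an interaction of 1.45 (SE 0.32, adjusted p = 0.0496). *Col6a3*, a chain of microfibrillar collagen VI, fell in WT from 8.22, 8.47 and 8.18 to 6.42, 6.52 and 6.47 and was not called in *Scnn1b*-Tg (from 6.93, 7.44 and 7.32 to 6.49, 6.81 and 6.93), for an interaction of 1.33 (SE 0.28, adjusted p = 0.0453). *Pxdn* (peroxidasin, which cross-links collagen IV), *Itga2* (a collagen-binding integrin chain) and *Cemip* (which breaks down hyaluronan) had interactions of 1.17 (SE 0.25), 1.17 (SE 0.25) and 1.15 (SE 0.25), with adjusted p of 0.046, 0.045 and 0.0448. All 3 fell in WT, by 1.79, 1.34 and 1.77 log2. Their *Scnn1b*-Tg minus WT differences at PND 10 were -0.90, -0.88 and -0.97 (adjusted p = 0.0221, 0.0221 and 0.00976 by limma), under the 2-fold limit. That of *Ltbp2* was -0.96 (adjusted p = 0.0613). Apart from *Thbs2*, each of these interaction calls was lost without 9 or 10 of the 12 arrays in turn.

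*Fn1*, fibronectin, was the matrix gene whose genotype difference was called at PND 42. It measured 10.79, 10.93 and 10.80 in WT at PND 10 and fell to 8.71, 8.99 and 8.47, while the *Scnn1b*-Tg arrays went from 10.03, 10.61 and 10.34 to 9.34, 10.03 and 10.36. It belongs to provisional matrix laid down in injury and growth. Its genotype difference was called at PND 42 (1.19, adjusted p = 0.0139) and not at PND 10 (-0.51, adjusted p = 0.555), and the interaction was 1.70 (SE 0.34, adjusted p = 0.0347), a call lost without 9 of the 12 arrays in turn.

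The wider matrix lists had positive medians and few calls. Of 18 collagen chain genes 1 was called, 15 lay above 0 (50.6% of all probe sets did) and the median was 0.66. By limma 12 had an unadjusted p under 0.05 in the higher direction (6.13% of all probe sets did). *Col4a1* and *Col4a2*, the basement membrane chains, followed *Col6a3* with 1.12 (SE 0.29, adjusted p = 0.118) and 0.89 (SE 0.25, adjusted p = 0.134). Of 16 elastic fibre and matrix assembly genes 1 was called and the median was 0.39; *Eln*, elastin itself, had 1.15 (SE 0.32, adjusted p = 0.139), while *Fbn2* and *Ltbp4* passed the adjusted p under 2-fold with 0.76 (SE 0.16, adjusted p = 0.0455) and 0.65 (SE 0.14, adjusted p = 0.0432). Of 25 matricellular and proteoglycan genes 2 were called and the median was 0.38, with *Tnc* (tenascin C) at 1.25 (SE 0.40, adjusted p = 0.229). *Pdgfrb*, a receptor of pericytes and fibroblasts, passed the adjusted p at 0.87 (SE 0.19, adjusted p = 0.046). Collagen genes are long, and 13 of the 18 have a genomic span of 59.4 kb or more. The median interaction over all genes of such a span was 0.06, against -0.01 over genes of up to 4.33 kb. These groups held 3984 and 3983 of 19,919 genes. Of the 41 genes called higher, 14 were in the group of long genes and 6 in the group of short ones. The part of gene length in the matrix values and in the other calls was not tested.

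**Figure D4:**
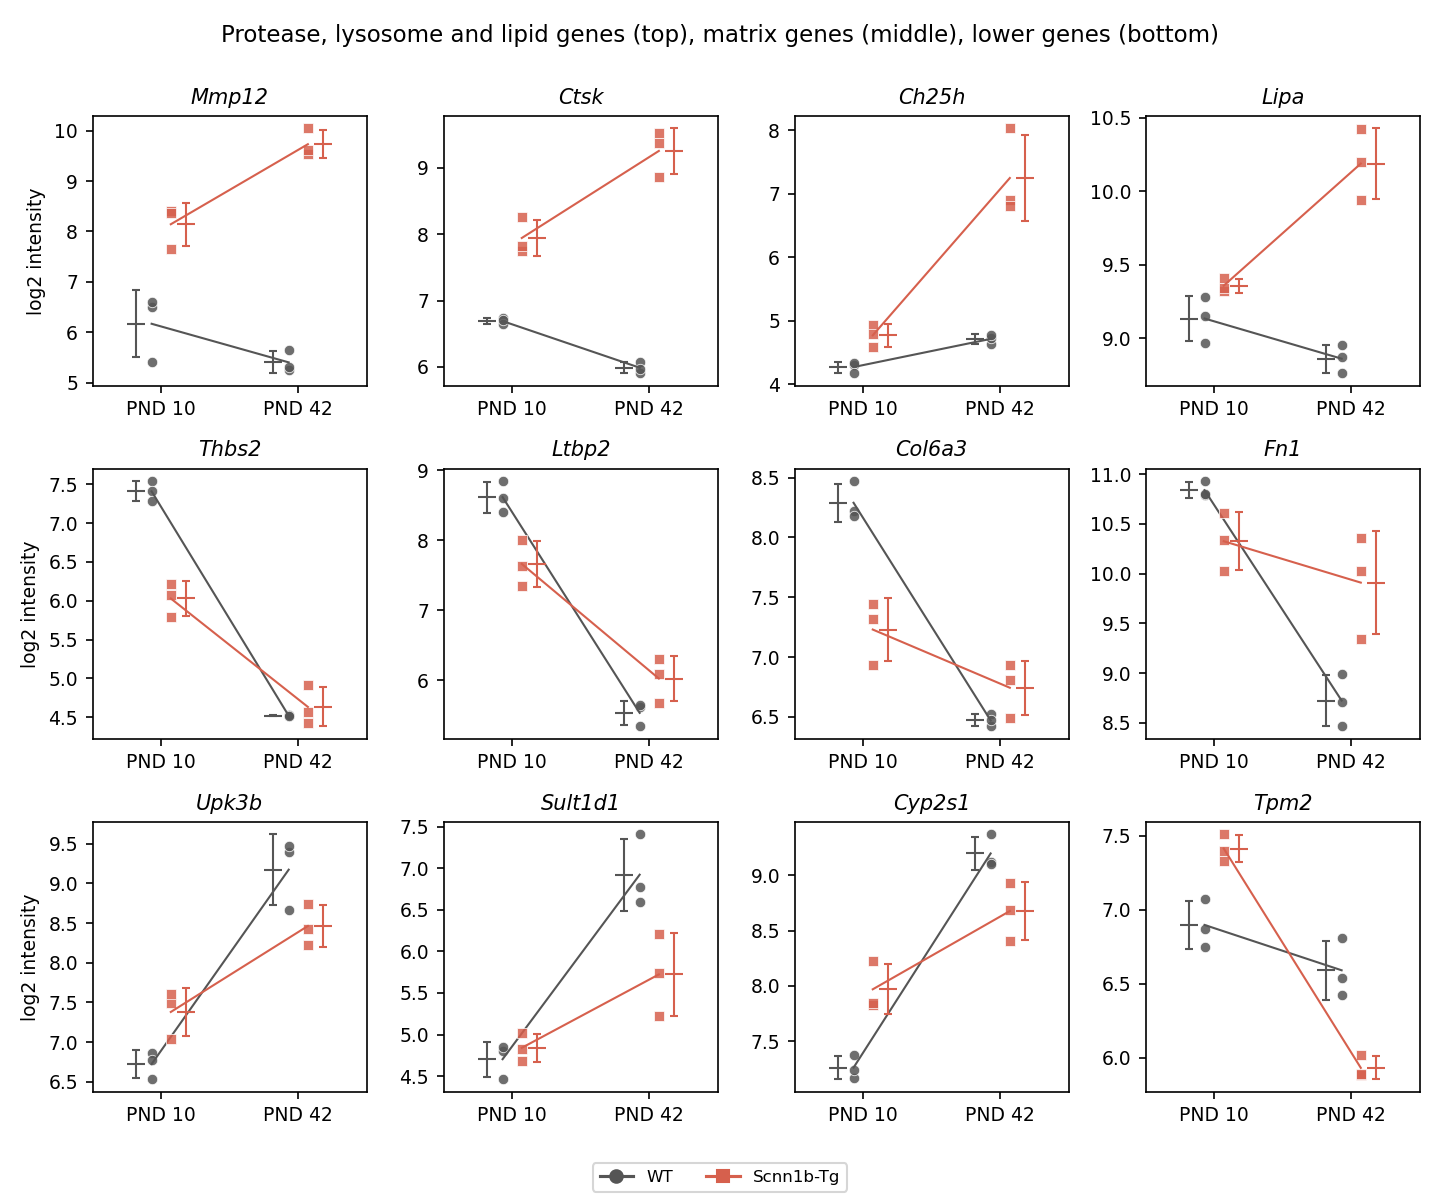
Log2 intensity of 12 genes in each of 3 arrays per group at PND 10 and PND 42 (WT as grey circles, *Scnn1b*-Tg as red squares), with group mean and SD beside the points and a line joining the means. In the top row the genotypes draw apart (*Mmp12* reaching 9.54 to 10.05 in *Scnn1b*-Tg), in the middle row they start apart and meet for *Thbs2* (4.42 to 4.91 at PND 42), and in the bottom row *Upk3b*, *Sult1d1* and *Cyp2s1* climb more steeply in WT than in *Scnn1b*-Tg.

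The remaining genes called higher belonged to no single role. *Igha*, the constant region of IgA, measured 4.63, 4.9 and 5.01 in WT and 4.64, 4.72 and 4.62 in *Scnn1b*-Tg at PND 10, and 5.36, 5.94 and 5.49 against 7.0, 6.64 and 7.06 at PND 42. It was level between the genotypes at PND 10 and apart at PND 42 (interaction 1.49, SE 0.19, adjusted p = 0.000192), and 1 of 18 B cell and plasma cell genes was called. *Igha* was called through 1 of its 2 probe sets, the other having an interaction of 1.55. Hc, complement component C5, rose in *Scnn1b*-Tg by 1.39 and was at 0.05 in WT (interaction 1.33, SE 0.26, adjusted p = 0.0347). *Cd1d1*, which presents lipid antigens to natural killer T cells, fell in WT by 1.45 and was not called in *Scnn1b*-Tg (interaction 1.30, SE 0.25, adjusted p = 0.0323). *Lrp12*, a lipoprotein receptor family member, measured 6.47, 6.61 and 6.58 in WT and 6.90, 6.77 and 6.79 in *Scnn1b*-Tg at PND 10, then 5.65, 5.55 and 5.76 against 6.94, 7.39 and 7.13 (interaction 1.23, SE 0.16, adjusted p = 0.000283).

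*A2ml1* (a protease inhibitor), *Tm4sf19* (a tetraspan membrane protein), *Plekhg1* (a pleckstrin homology domain protein), *Polr2a* (the largest subunit of RNA polymerase II), *Plcb2* (a phospholipase C) and *Dock6* (an exchange factor of Rac and Cdc42) had interactions between 1.01 and 1.84. Of these, *Tm4sf19* (1.43, SE 0.20, adjusted p = 0.00105) and *Plekhg1* (1.26, SE 0.21, adjusted p = 0.00551) kept their calls without each array in turn. The uncharacterised gene *4932438A13Rik* was called through 2 of its 19 probe sets (1.70 and 1.56), and all 19 lay above 0 with a median of 0.98. *Dock6* was called through 1 of its 15 probe sets, all of them above 0 with a median of 0.57.

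Surfactant and alveolar type II genes shared a small positive interaction. All 20 measured lay above 0 (50.6% of all probe sets did) with a median of 0.50. Of these 1, Hc, was called higher (0.193% of all probe sets were). *Fasn* (fatty acid synthase), *Slc34a2* (a phosphate transporter of type II cells) and *Lpcat1* (which makes surfactant lipid) came next with 1.13 (SE 0.32, adjusted p = 0.15), 0.85 (SE 0.29, adjusted p = 0.265) and 0.67 (SE 0.22, adjusted p = 0.257). The median of the list was 0.19 when quantile normalization was repeated and 0.27 without *Scnn1b*-Tg PND 10 replicate 1. All 9 MHC class II genes lay above 0 as well, with a median of 0.40 and none called; *Cd74*, the invariant chain, had 0.76 (SE 0.20, adjusted p = 0.123).

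**Figure D5:**
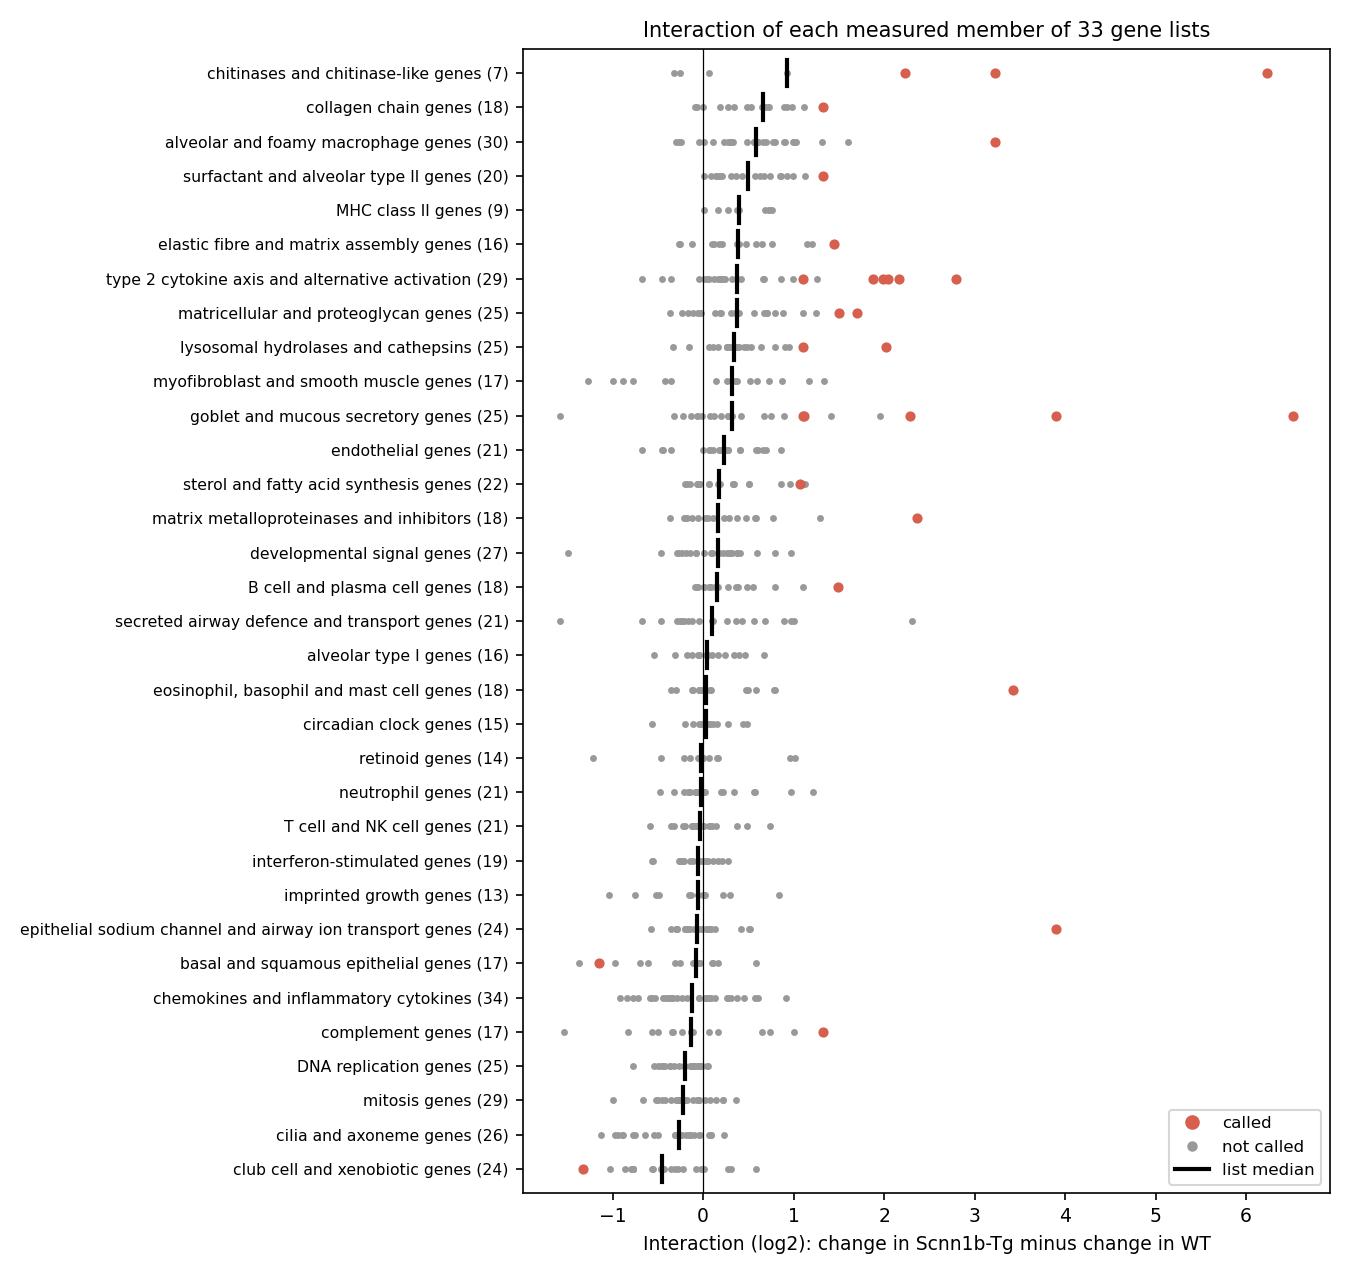
Interaction (x axis, log2) of each measured member of 33 gene lists (y axis, number measured in brackets), with called genes in red, others in grey and the list median as a black bar. Chitinase (0.93) and collagen (0.66) medians are the highest and the club cell and xenobiotic median (-0.45) is the lowest, while the type 2 and goblet lists hold 6 and 5 red points and every other list 3 or fewer.

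The 7 probe sets called lower are mostly of epithelial, ciliated, mesothelial or muscle cells. *Upk3b*, a uroplakin of the mesothelium that covers the lung, rose in WT from 6.86, 6.53 and 6.78 to 8.66, 9.39 and 9.47 and in *Scnn1b*-Tg from 7.49, 7.04 and 7.61 to 8.43, 8.74 and 8.22, for an interaction of -1.37 (SE 0.30, adjusted p = 0.046). *Msln* and *Upk1b*, further mesothelial genes, had -1.12 (SE 0.31, adjusted p = 0.133) and -0.81 (SE 0.24, adjusted p = 0.166). The mean of the 5 mesothelial markers was 6.23 to 6.6 in WT and 6.90 to 7.02 in *Scnn1b*-Tg at PND 10, and 7.75 to 8.43 against 7.70 to 8.09 at PND 42. How much mesothelium each lobe carried was not tested.

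*Sult1d1*, a sulfotransferase, rose in WT from 4.80, 4.46 and 4.85 to 7.41, 6.59 and 6.77 and reached 5.74, 5.22 and 6.21 in *Scnn1b*-Tg from 5.02, 4.82 and 4.68. The genotypes overlapped at PND 10 and were apart at PND 42 (-1.20, adjusted p = 0.00192), for an interaction of -1.33 (SE 0.28, adjusted p = 0.0441). *Cyp2s1*, a cytochrome P450, rose in WT by 1.93 from 7.17, 7.24 and 7.38 and was not called in *Scnn1b*-Tg (0.71), for an interaction of -1.22 (SE 0.22, adjusted p = 0.0172). Of 24 club cell and xenobiotic genes 1 was called lower (*Sult1d1*; 0.0321% of all probe sets were), 4 lay above 0 (50.6% of all probe sets did) and the median was -0.45. By limma 7 had an unadjusted p under 0.05 in the lower direction (3.72% of all probe sets did). *Fabp1*, a fatty acid binding protein, had -0.78 (SE 0.22, adjusted p = 0.136) and *Scgb1c1*, a secretoglobin, -0.77 (SE 0.26, adjusted p = 0.267). In WT 16 of these 24 genes were called higher at PND 42 than at PND 10 (1.7% of all probe sets were), and in *Scnn1b*-Tg 12 (1.79%).

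*Cfap206*, a protein of the ciliary axoneme, measured 5.70, 5.73 and 5.77 in WT and 7.03, 6.42 and 6.51 in *Scnn1b*-Tg at PND 10, and 7.01, 6.42 and 6.58 against 6.26, 6.47 and 6.42 at PND 42. At PND 10 the *Scnn1b*-Tg arrays lay near the level that WT arrays had at PND 42, and the interaction was -1.21 (SE 0.24, adjusted p = 0.0346). In WT the means of *Cfap206* were 6.57 at PND 0, 6.75 at PND 3 and 5.73 at PND 10, so WT was lowest at PND 10. The *Scnn1b*-Tg means at these ages were 6.34, 7.07 and 6.66. None of 26 other cilia and axoneme genes was called, 22 lay at or below 0 and the median was -0.27. By limma 9 had an unadjusted p under 0.05 in the lower direction (3.72% of all probe sets did). *Tekt1*, a tektin of ciliary microtubules, passed the adjusted p just under 2-fold (-0.97, SE 0.16, adjusted p = 0.00608), and *Rsph1* and *Rsph4a*, radial spoke proteins, had -1.13 (SE 0.27, adjusted p = 0.0725) and -0.94 (SE 0.25, adjusted p = 0.125).

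*Anxa8*, an annexin of stratified and injured epithelium, measured 6.55, 6.35 and 6.55 in WT and 7.81, 7.5 and 7.72 in *Scnn1b*-Tg at PND 10, and 7.44, 7.19 and 7.48 against 7.02, 7.59 and 7.64 at PND 42. Like *Cfap206* it was apart at PND 10 (1.19, adjusted p = 0.0021) and overlapped at PND 42 (0.04, adjusted p = 0.974), for an interaction of -1.15 (SE 0.25, adjusted p = 0.0496). In WT the means of *Anxa8* were 7.04 at PND 0, 7.67 at PND 3 and 6.48 at PND 10, again lowest at PND 10. The *Scnn1b*-Tg means at these ages were 6.95, 7.97 and 7.68. The uncharacterised *1700001L19Rik* had -1.12 (SE 0.24, adjusted p = 0.0441).

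*Tpm2*, the beta-tropomyosin of muscle, measured 6.75, 6.87 and 7.07 in WT at PND 10, 6.42, 6.54 and 6.81 in WT at PND 42, 7.51, 7.40 and 7.33 in *Scnn1b*-Tg at PND 10 and 5.88, 5.89 and 6.02 in *Scnn1b*-Tg at PND 42. It fell in *Scnn1b*-Tg by 1.48 and was not called in WT, for an interaction of -1.18 (SE 0.25, adjusted p = 0.046), and the call was lost when any of the 12 arrays was left out. Skeletal muscle transcripts were high in replicates 1 and 2 of *Scnn1b*-Tg PND 10, while *Tpm2* lay above every WT array in replicate 3 too. *Acta1*, skeletal actin, measured 9.18, 8.34 and 5.81 in *Scnn1b*-Tg at PND 10 against 5.17 to 5.58 in WT at PND 10, and *Ckm*, muscle creatine kinase, 7.99, 7.32 and 5.72 against 5.4 to 6.03. Smooth muscle markers had a median interaction of -0.88 over 5 genes with none called, *Cnn1* having -1.27 (SE 0.40, adjusted p = 0.213). The part of muscle tissue in this result was not tested.

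Several gene groups that change with inflammation or growth showed no called member. None of 21 neutrophil genes was called (median -0.02), the highest being *Cxcr1* with 1.22 (SE 0.27, adjusted p = 0.059), and the mean of 9 neutrophil markers overlapped between the genotypes at both ages. Single genes of the list did differ between the genotypes, *Cd177* at both ages (2.76 higher in *Scnn1b*-Tg at PND 10, adjusted p = 0.00274, and 3.10 higher at PND 42, adjusted p = 0.000215) and *Lcn2* and *Cxcr1* at PND 42 (2.01, adjusted p = 0.0256, and 1.36, adjusted p = 0.000338). *Cd177* and *Lcn2* were chosen after their values had been seen, and their interactions were 0.34 (SE 0.59, adjusted p = 0.932) and 0.97 (SE 0.62, adjusted p = 0.687). Among the 34 chemokines and inflammatory cytokines of the remaining list none was called (median -0.12), nor among 19 interferon-stimulated genes (median -0.06) or 21 T cell and NK cell genes (median -0.03). Of 18 matrix metalloproteinases and inhibitors *Mmp12* alone was called, ahead of *Mmp14* with 0.77 (SE 0.19, adjusted p = 0.0988) and *Mmp19* with 1.29 (SE 0.37, adjusted p = 0.158). Mitosis genes fell in both genotypes, with none called in the interaction (median -0.22). Of 29, 26 were called lower at PND 42 in WT (3.84% of all probe sets were) and 26 in *Scnn1b*-Tg (3.38%). *Ttr* stands apart from these groups, since the study attributes its difference between the genotypes to the transgenic construct. It was higher in *Scnn1b*-Tg at all 4 ages (2.71 at PND 10 and 2.54 at PND 42). Its interaction was -0.17 (SE 0.43, adjusted p = 0.961), or 0.02 when quantile normalization was repeated.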

How the data were processed

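Whole-lung RNA was hybridised to 1-colour arrays, and the authors deposited log2 intensities that they had normalized by RMA per the methods of the study, in Partek (version 6.5 per the submitters' processing notes). RMA subtracts background, equalises the distributions of probe intensities between arrays and summarises probes, which compresses differences of dim transcripts. Of 35,556 rows 21,789 carried exactly 1 gene symbol in the platform annotation (19,938 genes), 1621 carried several and 12,146 none, and only the first were tested. Array medians of the deposited values lay between 4.79 and 4.93, so these values did not have the same distribution in every array. Each array is 1 sample, and since the pools give the spread between pools and not between animals, their number limits the precision.

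One mean per group was fitted to 24 arrays in 8 groups (16 residual degrees of freedom) with lmFit and eBayes in limma 3.58.1 under R 4.3.3, and each comparison had its own Benjamini-Hochberg adjustment of 2-sided p-values. Calls needed an adjusted p of at most 0.05 and 2-fold. Where a gene had several probe sets, the brightest by its 24-array mean stood for it in a list. Named genes were up to 15 called probe sets with the largest interaction in each direction, up to 4 members of each list with the lowest p, a set of genes taken from the question of the study, and all other called probe sets. Members and lists were chosen with earlier results of these data known. Cell type markers are in lists of their own. Tested on simulated data with 21,789 probe sets, the interaction fit called 46.3% of changes of 1 log2, 85.1% of 1.5 and 97% of 2, with 3 false calls. The simulated noise was normal and independent between probe sets, without deviations shared across an array. These rates therefore need not hold for the real arrays. Alternatives changed the variance model, arrays, rows, filter, normalization, threshold and replicate block (statmod 1.5.0 was installed for limma). Promoter windows, gene spans and coordinates are from RefSeq on GRCm38.p6.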

Additional observations from a re-analysis of the deposited data

Results flagged for a closer look

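Each of the 49 probe sets called in the interaction is a difference between the genotypes in their response to the same interval, tested as such. Mucus genes gave 6.52 (*Clca1*), 3.90 (*Slc26a4*), 2.29 (*Muc5ac*), 1.12 (*Scin*) and 1.10 (*Agr2*) on the log2 scale. The chitinase family gave 6.23 (*Chil4*), 3.23 (*Chil3*) and 2.23 (*Chia1*). Type 2 genes and the ribonuclease gave 3.43 (*Rnase2a*), 2.79 (*Retnla*), 2.17 (*Ccl24*), 2.04 (*Ch25h*), 1.99 (*Mgl2*), 1.88 (*Ccl17*) and 1.10 (*Pdcd1lg2*). Protease, lipid and prostanoid genes gave 2.90 (*Awat1*), 2.36 (*Mmp12*), 2.35 (*Fbp1*), 2.02 (*Ctsk*), 1.23 (*Ptgir*), 1.15 (*Tbxas1*), 1.10 (*Lipa*) and 1.07 (*Acaca*).

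Matrix genes gave 1.70 (*Fn1*), 1.5 (*Thbs2*), 1.45 (*Ltbp2*), 1.33 (*Col6a3*), 1.17 (*Pxdn*), 1.17 (*Itga2*) and 1.15 (*Cemip*). The others called higher gave 1.84 (*A2ml1*), 1.70 and 1.56 (*4932438A13Rik*), 1.49 (*Igha*), 1.43 (*Tm4sf19*), 1.33 (Hc), 1.30 (*Cd1d1*), 1.26 (*Plekhg1*), 1.23 (*Lrp12*), 1.18 (*Polr2a*), 1.04 (*Plcb2*) and 1.01 (*Dock6*). Those called lower gave -1.37 (*Upk3b*), -1.33 (*Sult1d1*), -1.22 (*Cyp2s1*), -1.21 (*Cfap206*), -1.18 (*Tpm2*), -1.15 (*Anxa8*) and -1.12 (*1700001L19Rik*).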

How the results depend on the processing

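All 49 called probe sets kept their direction under every alternative run, and 14 kept their call under all of them (*Clca1*, *Chil4*, *Slc26a4*, *Rnase2a*, *Fbp1*, *Muc5ac*, *Ctsk*, *Mgl2*, *Thbs2*, *Igha*, *Tm4sf19*, *Plekhg1*, *Lrp12* and *Scin*). The count of calls, 49 with 42 higher and 7 lower, was 15 without eBayes moderation (15 higher, 0 lower, with 2061 probe sets at an unadjusted p under 0.05), 80 from the 12 arrays alone (73 higher, 7 lower) and 28 when all rows of the table were tested (26 higher, 2 lower). It was 48 when quantile normalization was repeated, with 36 higher and 12 lower, so that the share called higher went from 85.7% to 75%. Both adjusted p alone and adjusted p with 1.5-fold gave 70 (56 higher, 14 lower). Leaving out each array in turn gave 20 to 90 calls, 19 to 85 higher and 0 to 14 lower, with 20 of the 49 calls kept in the least favourable case. Other settings gave 39 to 62 calls. The interactions of *Ttr* and *Scgb1a1*, called in no setting, changed sign when quantile normalization was repeated, to 0.02 and -0.06. The cause of these changes was not tested.

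Of 18 same-numbered pairs of arrays 4 had deviations that correlated above 0.1, in a range of -0.16 to 0.272. The highest was that of WT PND 42 replicate 3 with *Scnn1b*-Tg PND 42 replicate 3. Pairs with different numbers were not compared, so these values cannot decide whether the replicate numbers pair the arrays. With the replicate number as a block 55 probe sets were called (49 higher, 6 lower), 46 of the 49 among them.

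With 3 arrays a group, and pools of differing size, differences near 2-fold could pass or miss the test by 1 array. Of 49 called probe sets 47 had a mean above 5 log2 in at least 1 group. Levels near the array floor understate fold changes.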
